A study of Mus musculus with 11 samples.

Results

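The locus is a 180-kb window of mouse chromosome 2 (mm9) that holds the starts of Abl1, Qrfp and Fibcd1, with listed CpGs from 31536029 to 31705855. It was selected on measured values: a pair of 500-bp tiles had gained methylation with hours without estradiol. The first tile has its CpGs at chr2:31656581-31656959, and the second tile is chr2:31664001-31664500. Of the 1480817 CpGs listed in at least 1 library, 269 lie in the window. A read was present in all 11 libraries at 206 of them, and 75 had at least 5 reads in each.

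The libraries are reduced representation bisulfite sequencing (RRBS) of ER-Hoxa9-Lys-GFP cells, a C57BL/6 myeloid progenitor culture. In these cells Hoxa9, a transcription factor that holds progenitors back from maturing, is fused to the estrogen receptor's hormone-binding domain. The fusion works while estradiol (E2) is present, and lysozyme-GFP reports maturation. All cultures grew in RPMI with fetal bovine serum and medium conditioned with stem cell factor. Cells kept in estradiol throughout gave 1 library. Cells without it for 120 h gave a pair. Further pairs came from cells without it for 24, 40, 56 or 72 h that were then given it back for 96, 80, 64 or 48 h. Among the returned cells a longer absence meant a shorter return, and the effects of both cannot be told apart. The 120 h pair was not given estradiol back. Comparisons of 120 h with 24 h thus differ both in the hours without estradiol and in the return, which cannot be told apart either. Whether replicates were separate cultures is not in the labels. The p-values therefore measure the spread between these libraries alone, and that spread may be technical.

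A cytosine that is followed by guanine (a CpG) can carry a methyl group that is copied at each cell division. CpG-rich starts of active genes are usually free of it, and gene bodies usually carry it. Bisulfite turns unmethylated cytosines into uracil, so the methylated share of reads gives the level at a CpG. Abl1 encodes a tyrosine kinase that acts in growth, DNA damage and cytoskeletal signalling and is the mouse counterpart of the kinase in the BCR-ABL1 fusion of leukaemia. Qrfp encodes the precursor of RF-amide neuropeptides that act on feeding. Fibcd1 encodes a membrane receptor that binds acetylated groups such as those of chitin. In the RefSeq gene table (GRCm38.p6) the genes are neighbours in the order Abl1, Qrfp, Fibcd1, with Abl1 on the plus strand and the others on the minus strand.

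The 250 bases before each start are shown because these are the promoters that flank the tiles. Their CpGs are the positions at which methylation could be listed. The sequences are from RefSeq (GRCm38.p6), read 5′ to 3′ on the gene's strand, with every CpG in capitals.
Abl1: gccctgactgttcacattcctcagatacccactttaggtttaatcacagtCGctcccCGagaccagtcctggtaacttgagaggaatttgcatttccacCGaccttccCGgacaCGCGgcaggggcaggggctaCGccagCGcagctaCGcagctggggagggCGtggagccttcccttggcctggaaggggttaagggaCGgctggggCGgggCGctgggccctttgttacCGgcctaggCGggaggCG
Qrfp: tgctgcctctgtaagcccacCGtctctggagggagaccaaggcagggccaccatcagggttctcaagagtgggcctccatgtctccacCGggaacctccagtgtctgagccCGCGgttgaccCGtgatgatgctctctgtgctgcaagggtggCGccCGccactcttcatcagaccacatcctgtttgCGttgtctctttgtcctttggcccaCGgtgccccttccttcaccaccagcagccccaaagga
Fibcd1: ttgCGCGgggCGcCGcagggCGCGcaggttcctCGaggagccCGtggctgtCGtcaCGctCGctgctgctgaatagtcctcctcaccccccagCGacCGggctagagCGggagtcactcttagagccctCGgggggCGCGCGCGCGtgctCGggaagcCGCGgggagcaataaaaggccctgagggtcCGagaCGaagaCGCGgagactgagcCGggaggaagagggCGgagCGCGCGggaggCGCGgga
The Abl1 stretch holds 16 CpGs, that of Qrfp 9 and that of Fibcd1 34. With the 50 bases after the start added, the counts are 23, 10 and 46. As many CpGs or more are present in 21.5%, 43.5% and 1.6% of the 32851 RefSeq promoters of that length.

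Because the RefSeq build is not that of the libraries, each promoter was placed on mm9 by finding where the spacing of its CpGs equals that of CpGs listed in the libraries. For Abl1 all 13 CpGs listed there, counting the 50 bases after the start, matched, with the 250 bases at chr2:31615209-31615458, and the next best place on the chromosome matched 5. For Fibcd1 all 12 matched at chr2:31701526-31701775, against 6 at the next best. Qrfp matched with 3 of 3 at chr2:31666101-31666350, a place that is unique in the window but 1 of 33 with as many on the chromosome. The promoters placed in this way lie 50842 bp (Abl1 to Qrfp) and 35425 bp (Qrfp to Fibcd1) apart, the same distances as in the RefSeq table. The centre of the first tile lies 41.3 kb past the Abl1 start shown and 44.8 kb from the Fibcd1 start. It lies 9.3 kb past the Qrfp start in the direction of that gene's transcription. RefSeq gives a further Abl1 start, placed at chr2:31615693, which lies 41.1 kb before that centre. The second tile lies 1.8 kb past the Qrfp start and 37.3 kb from that of Fibcd1. Whether either tile lies in an exon, an intron or a UTR was not determined, because an mm9 annotation was not used here.

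Both tiles had a larger share of methylated reads after long times without estradiol, from different starting levels. In the second tile the rise was seen only from 56 h on. The first tile was already partly methylated in estradiol, and the second was almost unmethylated. These values chose the locus, so they are given as a description with no test.

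Methylation of the first tile, over the 4 of its 5 CpGs read in every library, was 18.5% in the library kept in estradiol (Wilson 95% interval 10.9 to 29.6%). It was 25.3% and 33.2% in the 24 h pair and 42.2% and 41.5% in the 40 h pair. The 56 h pair had 43.2% and 51.4%, the 72 h pair 50.6% and 53.2%, and the 120 h pair 58.0% and 55.1%. The group means ± SD (n = 2) from 24 h to 120 h were 29.3 ± 5.6%, 41.8 ± 0.5%, 47.3 ± 5.8%, 51.9 ± 1.8% and 56.6 ± 2.0%, in the order of the hours. That order did not hold between 56 h and 72 h in 2 other ways of summing: with each CpG weighted equally the 56 h pair had 48.0% and 56.1% against 48.9% and 53.5% at 72 h, and without the deepest CpG 53.3% and 65.4% against 54.8% and 63.4%. The 120 h pair had 55.5% and 53.1% with equal weights and 65.7% and 57.1% without the deepest CpG. It thus overlapped both the 56 h and the 72 h pair in each of these ways. As summed here, neighbouring groups overlapped only between 56 h and 72 h, yet with 37 to 241 reads per library the intervals of neighbouring groups overlap elsewhere too. The mean of the 120 h pair was 27.3 percentage points above that of the 24 h pair and 38.1 points above the single library kept in estradiol.

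The second tile holds 9 CpGs, all read in every library, with 70 to 604 reads per library. Its methylation was 0.8% in estradiol (Wilson 95% interval 0.1 to 4.1%), 1.2% and 0.5% at 24 h, and 1.2% and 1.0% at 40 h. From there the pairs had 2.9% and 6.2% at 56 h, 5.3% and 11.3% at 72 h, and 12.2% and 11.6% at 120 h. The means from 24 h to 120 h were 0.9 ± 0.5%, 1.1 ± 0.2%, 4.6 ± 2.4%, 8.3 ± 4.2% and 11.9 ± 0.4% (SD, n = 2). The first 3 levels (0, 24 and 40 h) lay within each other's range, 56 h and 72 h overlapped, and the lower 120 h library, at 11.6%, was close to the higher 72 h library, at 11.3%. That 72 h library was above it with CpGs of at least 5 reads in every library (8.0% against 5.7%), with equal weights (14.3% against 13.3%) and without the deepest CpG (14.2% against 12.9%). The gain of 120 h over 24 h was 11.1 points. Over only the CpGs with at least 5 reads in every library it was 6.2 points, so CpGs with few reads in the shallow libraries carried much of it.

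**Figure D1:**
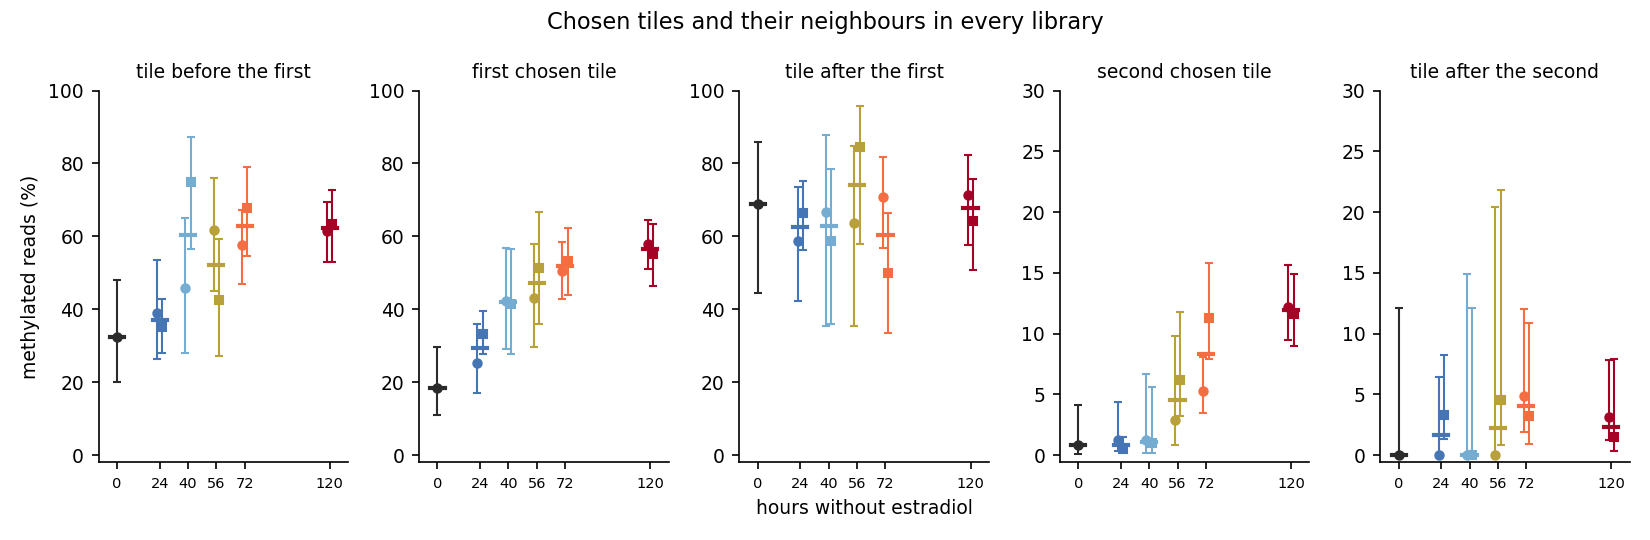
Methylated reads (%) against hours without estradiol for the 2 selected tiles and the tiles beside them; circles are replicate 1, squares replicate 2, vertical bars Wilson 95% intervals of counting error, and short horizontal bars group means. The panels use 2 vertical scales. The first tile climbs from 18.5% to a 120 h mean of 56.6% and the second from 0.8% to 11.9%, while the tile after the first lies between 50.0 and 84.6% and the tile after the second between 0.0 and 4.9%, with no order by hours.

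Within the first tile the gain differed between CpGs. At position 31656581, 2 of 12 reads were methylated in estradiol, and 2 of 11 and 27 of 71 were methylated at 24 h. There were 4 of 7 in each 40 h library, 7 of 8 and 4 of 5 at 56 h, 35 of 48 and 21 of 28 at 72 h, and 49 of 57 and 28 of 36 at 120 h. With the reads of a group pooled, this CpG went from 16.7% in estradiol to 35.4% at 24 h and 82.8% at 120 h. It had the highest level of the 4 CpGs at every time from 24 h on. At 31656789 the pooled levels of estradiol, 24 h and 120 h were 11.5%, 31.0% and 55.7%. At 31656867 they were 6 of 20 reads, 30.1% and 44.0%, and at 31656959 they were 14.3%, 27.9% and 38.2%. The fifth listed CpG, at 31656765, lacked reads in a 40 h and a 56 h library and had 9 of 20 methylated reads at 24 h and 12 of 12 at 120 h.

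In the second tile methylated reads were close to absent before 56 h. None of the reads was methylated at 8 of its 9 CpGs in estradiol, at 6 of 9 in the 24 h pair, at 7 of 9 in the 40 h pair and at 6 of 9 in the 56 h pair. In the 72 h pair 1 of 9 CpGs had no methylated read, and at 120 h all 9 had methylated reads in both libraries. The levels at 120 h were highest at the start of the tile. With the pair pooled, they were 26.4% at 31664018, 23.6% at 31664033, 20.5% at 31664041 and 14.8% at 31664077. Further in, 31664101, 31664195, 31664219 and 31664425 had 4.2%, 7.6%, 4.1% and 7.1%, whereas 31664212 between them had 19.4%. The first 3 positions have nearly equal read numbers in each library, and a read that spans them is counted at each, so they are not independent of each other.

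The depth behind the early CpGs of the second tile was low. At 31664018 there were 0 methylated of 7 reads in estradiol, 0 of 15 and 2 of 58 at 24 h, and 0 of 2 and 0 of 13 at 40 h. The later counts were 0 of 6 and 4 of 15 at 56 h, 1 of 31 and 4 of 18 at 72 h, and 4 of 29 and 15 of 43 at 120 h. The shares of the 120 h replicates thus lay further apart at this CpG than over the tile as a whole, on few reads and with no test. At 31664212, the other CpG that stood out, 0 of 14 reads were methylated in estradiol, 1 of 13 and 0 of 55 at 24 h, 2 of 8 and 3 of 12 at 56 h, and 13 of 47 and 5 of 46 at 120 h.

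**Figure D2:**
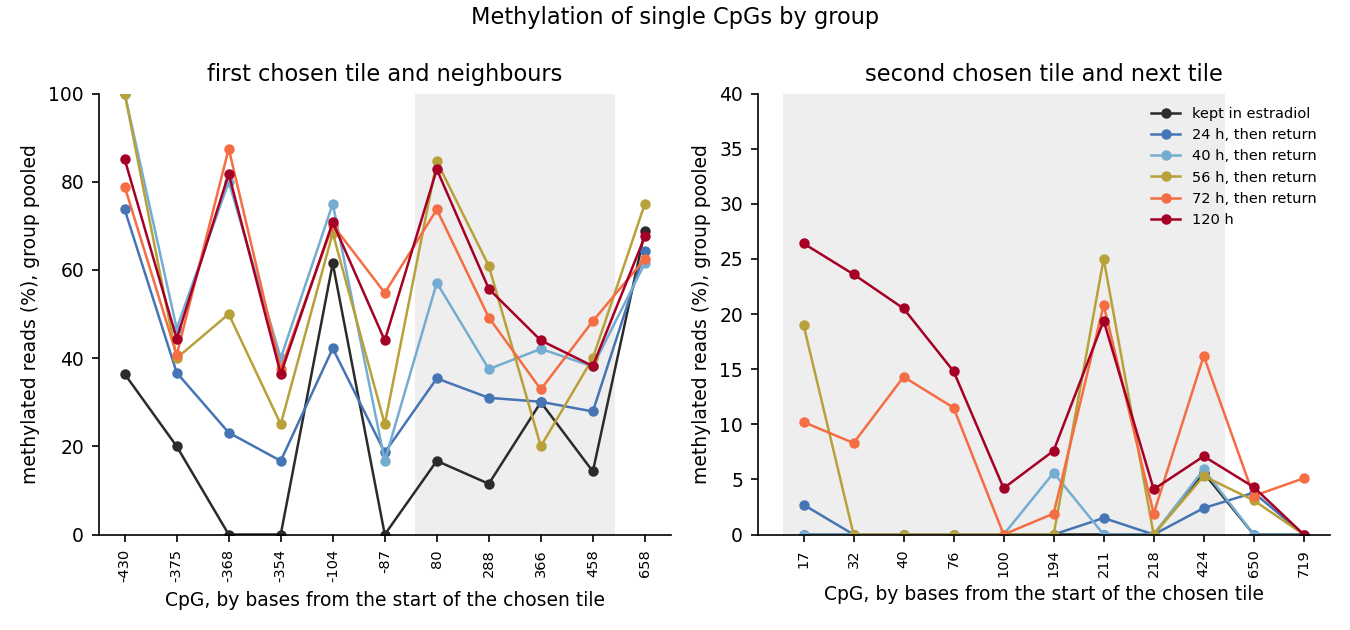
Methylated reads (%) at each CpG read in every library, with the reads of a group pooled, by distance in bases from the start of the selected tile (shaded); lines join the CpGs of 1 group and are no fit. On the left the 120 h line lies above the 24 h line at each of the first tile's CpGs and at those of the tile before it, and the lines meet at the CpG after it; on the right the 120 h line starts at 26.4% and is at 4.3% and 0.0% at the 2 CpGs after the tile. The vertical scales of the panels differ.

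Both 120 h libraries were above both 24 h libraries at 12 of the 13 CpGs of the tiles and below them at 0. Over all 1189611 CpGs read in every library these shares were 6.75% and 10.0%. The rule used this contrast, so nothing is read from the 12. Of the 193 other window CpGs, 18 (9.33%) were above and 17 (8.81%) below, close to those shares in both directions. The tile just before the first tile held 4 of the 18.

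That tile, chr2:31656001-31656500, was the only flanking tile with a comparable gain. Over its 6 CpGs read in every library the level was 32.5% in estradiol, 39.1% and 35.1% at 24 h, and 45.8% and 75.0% at 40 h. It was 61.8% and 42.4% at 56 h, 57.5% and 67.9% at 72 h, and 61.5% and 63.3% at 120 h. The 24 h and 120 h pairs did not overlap, with means of 37.1 ± 2.9% and 62.4 ± 1.3% (SD, n = 2), a difference of 25.3 points. The 40 h and 56 h pairs each spread widely, on 24 to 34 reads per library, and their order does not follow the hours. At its last CpG, 31656414, the pooled levels were 0 of 9 reads in estradiol, 8 of 43 at 24 h, 17 of 31 at 72 h and 22 of 50 at 120 h.

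The 9 listed CpGs of that tile and the 5 of the first tile span 888 bp, from 31656071 to 31656959. The nearest CpG before them that was read in every library lies 957 bp away, at 31655114, and was at 88.6 to 100% in every library. At 200 bp after them, 31657159 was at 68.8% in estradiol, 58.8% and 66.3% at 24 h, and 71.4% and 64.2% at 120 h, a pair of ranges that overlap. The 2 CpGs that follow, 31657401 and 31657411, were at 94.0% and 84.3% in the pooled 24 h pair and at 93.2% and 93.8% at 120 h. The stretch with the gain thus lay between more methylated neighbours, and at 120 h its mean level was still below theirs.

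Between the tiles, 6 CpGs from 31659187 to 31660034 were methylated throughout. Their pooled level was 98.1% in estradiol, 99.6 ± 0.5% at 24 h and 98.3 ± 0.6% at 120 h (SD, n = 2), with 92.3% the lowest of the 11 libraries. No CpG is listed in the 3984 bp that separate the last of them from the second tile, so the place where methylation drops to near 0 is not resolved. The DNA before the gain was methylated throughout too. The 15 CpGs from 31638150 to 31655114 had 94.7 to 100% (median 97.8%) across the libraries, and the 120 h mean was 0.2 points below that of 24 h.

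After the second tile the DNA was unmethylated up to and past the Qrfp start. The tile chr2:31664501-31665000, whose first CpG lies 226 bp after the last of the second tile, had 0.0% in estradiol (0 of 28 reads), 0.0% and 3.3% at 24 h and 3.1% and 1.5% at 120 h. The highest of the 11 libraries was 4.9%, a 72 h library. At 31665777 and 31666000 no read was methylated in any library. The 3 listed CpGs of the Qrfp promoter were not read in every library. They had 0 methylated reads of 238, summed over these CpGs and all libraries. That would allow a level of up to 1.26% if the counts were independent. The 3 CpGs lie close together, from 31666236 to 31666261, so a read can be counted at each and the limit may be higher. High methylation returned by 31668861: the 21 CpGs from there to 31677078 had 87.8 to 94.5%, and the 120 h mean was 0.2 points above that of 24 h. The second tile is the outermost listed tile, on the Abl1 side, of an unmethylated stretch that spans the Qrfp start.

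The promoter of the Abl1 start shown above was almost free of methylated reads in every group. Summed over its 10 listed CpGs, 0 of 171 reads were methylated in estradiol. That would allow up to 1.8% if the counts were independent, and more where a read is counted at several CpGs. The 24 h libraries had 0.7% and 0.2%, and the 120 h libraries 0.2% (1 of 475 reads) and 0.0% (0 of 395 reads). The other 6 libraries had 0.0% each. Before the further Abl1 start, 1 of 1023 reads was methylated over all libraries, at 7 listed CpGs. A second CpG-dense unmethylated stretch at the left of the window, chr2:31543501-31544500, had 0.0 to 4.6% in every library. The 2 CpGs just before it, 31543475 and 31543497, were partly methylated, at 37.5 to 71.4% on 7 to 100 reads per library.

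The Fibcd1 promoter was partly methylated in all groups, despite its CpG density. Over 12 CpGs its level was 75.4% in estradiol, 83.8% and 74.3% at 24 h, 61.4% and 70.8% at 40 h, 67.6% and 72.6% at 56 h, 76.4% and 71.9% at 72 h, and 63.1% and 69.7% at 120 h. The means of 24 h and 120 h were 79.1 ± 6.7% and 66.4 ± 4.7% (SD, n = 2), and the pairs did not overlap. With all libraries pooled, the levels of its CpGs ranged from 34.4 to 96.3%. The level fell off sharply along the gene's start: chr2:31701001-31701500, downstream of the start, had 89.5 to 100%, and chr2:31702001-31702500, upstream of the promoter, had 2.9 to 14.8%. The next tile upstream, chr2:31702501-31703000, was at 39.6 to 55.0%.

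**Figure D3:**
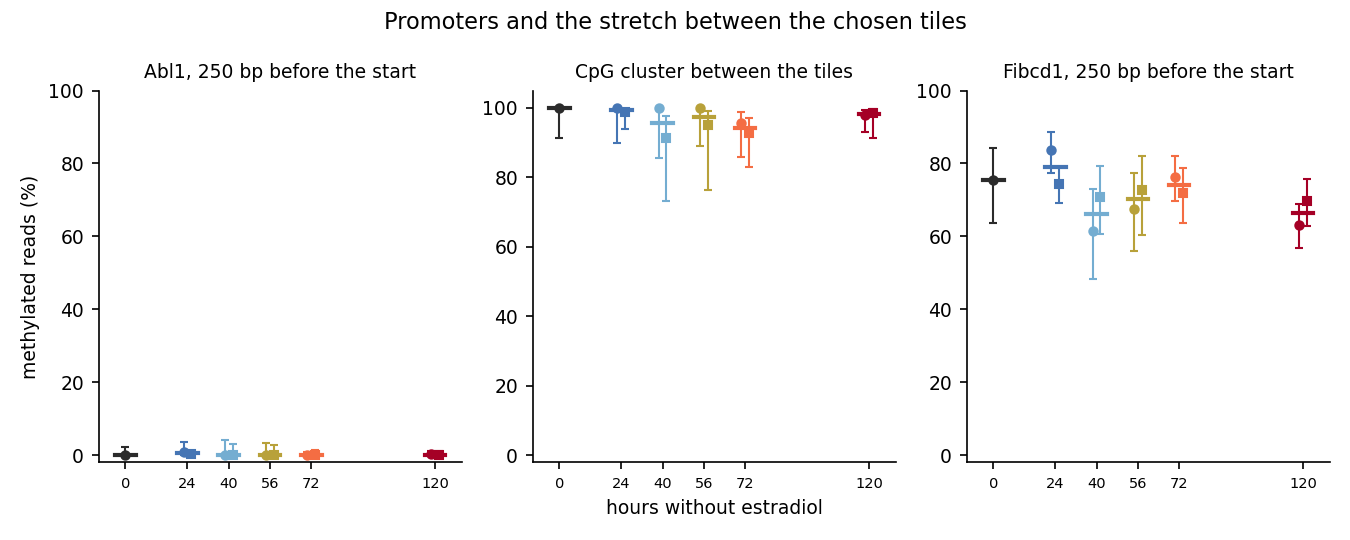
Methylated reads (%) against hours without estradiol in the 250 bp before the Abl1 start, in the CpG cluster between the selected tiles and in the 250 bp before the Fibcd1 start; circles are replicate 1, squares replicate 2, vertical bars Wilson 95% intervals and short horizontal bars group means. Abl1 stays at 0.0 to 0.7%, the cluster between the tiles at 91.3 to 100%, and Fibcd1 between 61.4 and 83.8% with no order by hours.

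Tests were made on all tiles of the genome that had at least 3 CpGs with 5 or more reads in each library of the fit, and only the window's tiles other than the selected pair were read from them. In the comparison of 120 h with 24 h, 1 of 23 such window tiles was called at an adjusted p of 0.05, beside 0.167% of all 114694 tiles (0.0828% called higher and 0.0846% lower). It was chr2:31656001-31656500, the tile before the first tile. This tile adjoins the first tile, which chose the locus on the same gain, so its p is not independent support for the gain. Over the 5 CpGs that entered, its levels were 37.8% and 30.1% at 24 h and 54.8% and 58.0% at 120 h. Its odds of methylation were 2.71-fold higher at 120 h (95% interval 1.65 to 4.45, adjusted p = 0.0486 by the quasi-binomial test with limma's moderated dispersion).

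The call depended on the processing. It was lost with limma on log ratios (adjusted p = 1.0), with libraries thinned to equal depth (0.816) and with any of the 4 libraries left out (0.897 to 0.932), while the gain stayed positive in each. With replicate number added to the model as a block, the tile's adjusted p was 0.999 (quasi-binomial test). The call was kept with 1 read per CpG (0.00512). The dispersion in this comparison was nearly all borrowed from other tiles, since it has 2 residual degrees of freedom.

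Another 2 window tiles had an unadjusted p under 0.05 in that comparison, and neither was called. At chr2:31701501-31702000, which holds the Fibcd1 promoter, the 24 h libraries had 78.1% and 70.6% and the 120 h libraries 63.2% and 68.0% over the 19 CpGs that entered (adjusted p = 0.438, quasi-binomial test). At chr2:31679001-31679500 the 24 h libraries had 81.2% and 77.4% and the 120 h libraries 87.2% and 85.0% (adjusted p = 0.662, quasi-binomial test). Adjusted p for the 22 uncalled tiles ran from 0.438 to 1.0.

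With hours as a slope over all 11 libraries, 0 of 10 window tiles were called and 0 had an unadjusted p under 0.05 (adjusted p 0.907 to 0.995, quasi-binomial test). Of all 44309 tiles 0.0113% were called (0.00226% higher and 0.00903% lower), 2687 had an unadjusted p under 0.05, and limma called 0. Those 10 include the Abl1 and Fibcd1 starts and methylated tiles between the Qrfp and Fibcd1 starts, but not the tile before the first tile, in which too few CpGs had 5 reads in every library. Over the 8 libraries of returned cells, 0 of 11 window tiles were called and 0 had an unadjusted p under 0.05 (adjusted p 0.834 to 0.996). There 0.00442% of 45255 tiles were called, all of them lower (0.0% higher), and limma called 0. The 3 fits share libraries.

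Counted without a test, 19 other window tiles had at least 20 reads in every library. A single one, again the tile before the first tile, was more than 10 points higher at 120 h than at 24 h, and 0 were more than 10 points lower. Over 74346 tiles of the genome the shares were 0.49% and 0.616%. The median difference over the 19 tiles was -0.2 points, and the lowest, at the Fibcd1 start, was -9.6 points.

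**Figure D4:**
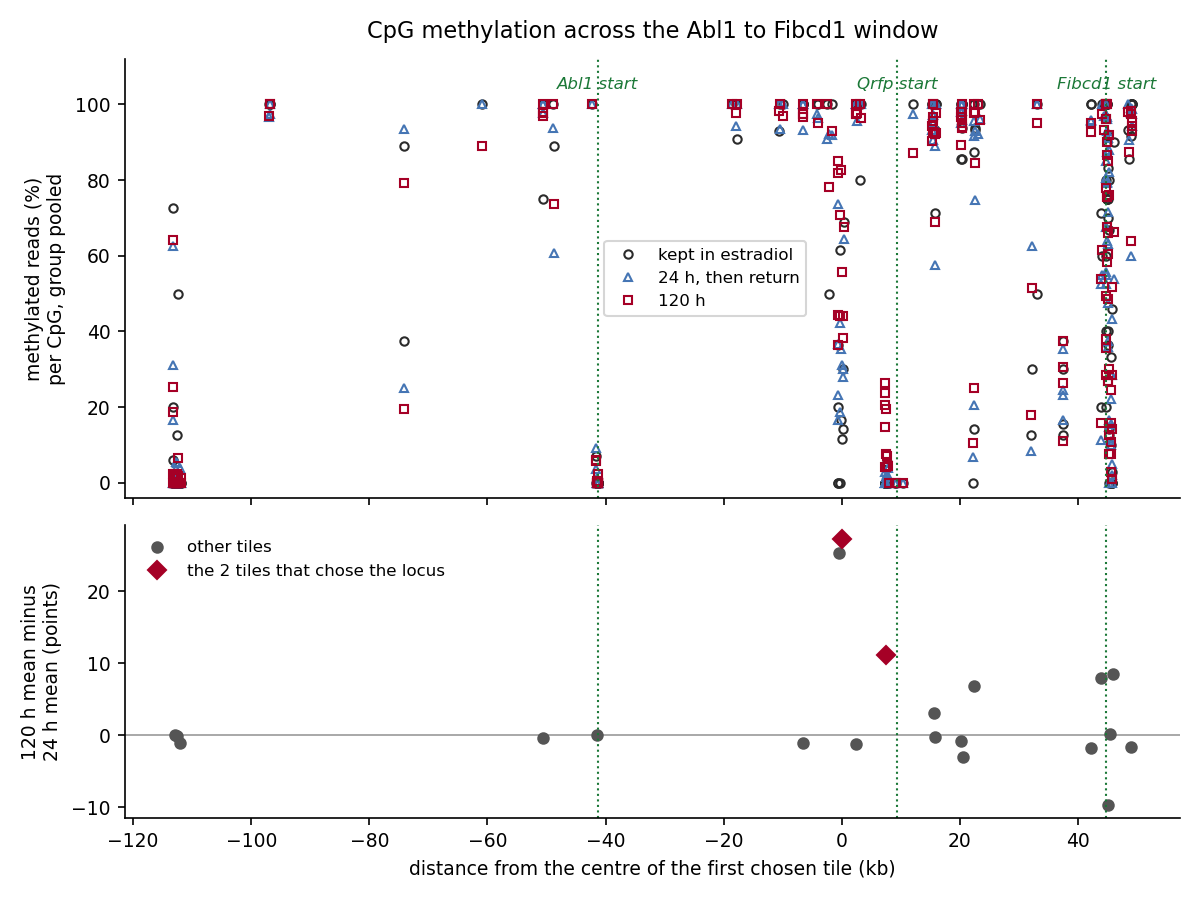
Upper panel, methylated reads (%) of each window CpG read in every library, for the library kept in estradiol and the pooled 24 h and 120 h pairs; lower panel, the 120 h mean minus the 24 h mean (percentage points) of tiles with at least 20 reads in every library; both against distance in kb from the centre of the first tile, with dotted lines at the gene starts. The selected tiles, at 27.3 and 11.1 points, and the tile before the first, at 25.3, stand above the other tiles, which lie between -9.6 and 8.5 points.

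Reads over the window were 163.5 to 183.4 per 1000000 CpG-read observations of a library (median 175.7). The 120 h libraries had the lowest shares, 163.5 and 167.3. Per 1000000 observations the first tile took 4.0 to 5.7 and the second 7.2 to 14.9. Library depth itself ran from 8234933 to 46899896 CpG-read observations, lowest in the 40 h and 56 h pairs.

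Tiles elsewhere whose 6 group means were most like those of the first tile were sought among 1076 tiles with a range of at least 20 points. The closest was chr6:120615001-120615500 (Pearson r = 0.962 over 6 group means), which went from 52.3% in estradiol to 59.8% at 24 h, 78.4% at 72 h and 73.8% at 120 h. Next came chr2:34476001-34476500 (r = 0.957), from 0.0% in estradiol to 3.5% at 24 h and 22.2% at 120 h. Then followed chr12:74212501-74213000 (r = 0.953), chr11:83261501-83262000 (r = 0.933) and chr6:124807001-124807500 (r = 0.931). Unlike in the first tile, the 120 h mean lay below the 72 h mean in 3 of these 5. The group means come from the same libraries and the tiles were picked for likeness, so these values are a description.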

How the data were processed

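RRBS of 11 libraries was analysed, grouped by the labels. The deposited tables give, per CpG, the count of methylated reads and of all reads, and the authors' score, which in 100.0% of lines was the methylated share times 1000, rounded; tests used the counts. Per the submitters' processing notes the build was mm9. The aligner, caller, trimming and duplicate handling are not given in the sources used here. Per the labels' protocols DNA was adapter-ligated, bisulfite-converted and amplified by PCR, so a read may not be an independent molecule and intervals cover counting error only.

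The window, its genes and the lists were chosen with earlier results of these data known, and the 2 tiles that chose it were not tested. Named tiles are those 2, all tiles within 2 kb of either, window tiles called in any fit, and the 10 window tiles tested in the trend; other tiles named (beside the Fibcd1 start, at the left of the window and chr2:31679001-31679500) were chosen after their values were seen. The 4 stretches of CpGs described between and beside the tiles were delimited after their values were seen. Tile levels sum reads over CpGs read in all 11 libraries.

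Tests used 500-bp tiles of chromosomes 1 to 19 and X with at least 3 CpGs of at least 5 reads in each library of the fit. A quasi-binomial logistic model per tile was tested two-sided by the F test on the deviance, with the dispersion moderated by limma 3.58.1 (squeezeVar), not below 1, and Benjamini-Hochberg adjustment over all tiles. Scripts ran in Python 3.11.15 and R 4.3.3. The fits were tested on simulated counts, where unchanged tiles were called too, so a count of calls is not a count of true changes. The ratio of replicate differences to sampling noise (chi-square per degree of freedom) was 1.36 to 1.59 in the 5 pairs. The counts within a pair were thus not identical. A read counted at several CpGs can raise this ratio, so the ratio cannot show whether a pair came from 1 library or 2. The replicate 1 minus replicate 2 difference of a group correlated at 0.0 to 0.03 with that of another, over 14623 tiles and 10 pairs of groups. Counting noise in these differences lowers such correlations, so they cannot decide whether replicate numbers pair the libraries.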

Additional observations from a re-analysis of the deposited data

How the results depend on the processing

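The gain of the first tile from 24 h to 120 h (27.3 points) ranged from 25.6 to 31.6 points over the other ways of weighting its CpGs. That of the second tile (11.1 points) was 6.2 with CpGs of at least 5 reads in every library, 12.9 with each CpG weighted equally and 12.6 without its deepest CpG. In the comparison of 120 h with 24 h the 192 calls became 0 with limma, 7 at equal depth and 0 with the replicate block, and 0 to 4 without 1 library. The 1 window tile called became 0 with 10 reads per CpG, with 1000-bp tiles, with limma, at equal depth and with the replicate block, and 0 to 0 without 1 library. Under the replicate block its adjusted p was 0.999. At 10 reads per CpG it had too few CpGs, and 1000-bp tiles merge it with the first tile. In the trend over 11 libraries the 5 calls became 0 with 10 reads per CpG, 21 with 2 CpGs per tile, 16 with 1000-bp tiles, and 0 with limma, at equal depth or with the replicate block (without the library kept in estradiol, which has no number), and 0 to 6 without 1 library. In the trend over 8 libraries the 2 calls became 0 with 10 reads per CpG, 5 with 1 read per CpG, 5 with 2 CpGs per tile, 5 with 1000-bp tiles, 4 with no lower limit on the dispersion, 0 with limma, 0 at equal depth and 0 with the replicate block, and 0 to 1 without 1 library. The cause was not tested. Window tiles called in both trends were 0 to 0 without 1 library. No gain of the selected tiles changed sign with the weighting. In the comparison of 120 h with 24 h, 3 window tiles had an unadjusted p under 0.05 (quasi-binomial test). They kept their signs wherever they were fitted as 500-bp tiles, and signs of other tests were not compared. For the first tile the order of the 56 h and 72 h means changed with the weighting, as did the separation of the 120 h pair from both. For the second tile the order of the closest 72 h and 120 h libraries changed. These changes are given with the levels. Whether replicate numbers mark a pairing or a batch is not known, so the loss of calls under the block remains a limit of these results. Depth limits the map: 14 of 269 window CpGs had at least 10 reads in every library.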
